A study of Rattus norvegicus with 6 samples.

Results

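The transcripts described here encode the nuclear-made parts of respiratory complexes II to V: succinate dehydrogenase, the cytochrome bc1 complex, cytochrome c oxidase with 3 of its assembly factors, and ATP synthase, with cytochrome c itself. The list held 46 genes, chosen by name and function. A gene counted as measured where a probe set was annotated to it alone, and its brightest probe set stood for it. By that rule 41 of the 46 were measured, out of 14217 genes with such a probe set on the array. Uqcrb, Cycs, Cox7a2, Atp5mc1 and Atp5mc2 were represented only by probe sets that name several genes, and no value is given for them.

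Hearts came from male rats of a pair of inbred strains: Dahl S, the Dahl salt-sensitive rat, and S.LEW(10)x12x2x3x5, a congenic strain that has the Dahl S background and a segment of Lewis rat chromosome 10. The sources used here do not say where the segment ends. All rats shared a birth date and a cage held 1 rat of each strain. They were weaned at 30 days, ate a low-salt diet (0.3%) from then on and gave their hearts at 53 days, so that neither group had a high-salt challenge. Each strain gave 3 arrays, and each array held heart RNA pooled from 2 rats. The p-values therefore rest on the spread between pools, which averages over the animals in each pool. Limma, the test used, also draws the variance of each probe set toward a value shared by all probe sets. For members with very little spread, its standard error (SE) is therefore larger than their own arrays alone would give. The series sets the heart transcriptome of the congenic rat beside that of the hypertensive Dahl S rat.

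In the inner mitochondrial membrane, complex II passes electrons from succinate to ubiquinone, complex III passes them on to cytochrome c, and complex IV gives them to oxygen. Complexes III and IV pump protons as they do so, and complex V, the ATP synthase, lets protons flow back through a rotor and makes ATP. Complex II is encoded by nuclear genes alone, while the other complexes also have subunits from mitochondrial DNA. Heart muscle makes these proteins in large amounts, and for several cytochrome c oxidase subunits it uses a muscle isoform beside or in place of the ubiquitous one.

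The members were among the brightest probe sets of the arrays. Of 41, 34 lay above the 99th percentile of the 31042 tested probe sets by mean level, and 35 had a mean log2 level of 12 or more. The labelled tissue matched its markers: 17 measured cardiomyocyte genes had mean log2 levels of 12.64 to 14.89, where the median probe set was at 6.55. Pearson correlations between arrays were 0.993 to 0.998. Spiked-in hybridization controls were brighter on Dahl S array 3 (11.17, a mean log2 level over 16 probe sets) and congenic array 2 (11.17), while the remaining 4 arrays, called low-control arrays here, had 10.25 to 10.41. Within a strain the members varied little, with a median SD of 0.04 on the log2 scale, as for the 361 genes of mean log2 12 or more (0.04), against 0.08 for all genes.

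Nearly all members were slightly lower in the congenic heart, and no single one passed the test. Differences are given throughout as log2 values, congenic minus Dahl S. Of 41 members 38 lay below 0, with a median of -0.03, which is 2.28% lower. Over all genes 53.3% lay below 0 and the median was -0.01. In limma, with Benjamini-Hochberg adjustment over all probe sets, 0 of 41 members had an adjusted p under 0.05 (0.0352% of all genes did), and their adjusted p ran from 0.717 to 0.993. At an unadjusted p under 0.05 there was 1 member, Cox7a1, which was lower, against a background of 7.03% of genes in either direction, 3.55% lower and 3.47% higher. In 11 of the 41 members every congenic array lay below every Dahl S array, against 8.75% of all genes, and 0 members had every congenic array above, against 5.89% of all genes. Apart from Cox7a1, the nearest arrays of the strains in those 11 members differed only in the last digit given. The members share the same 6 arrays and vary together, so these counts are a description of the list and carry no test.

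Small differences below 0 were also common among other bright genes. Of the genes that are not members, 60.4% of 91 with a mean log2 level of 13 to 14 lay below 0, and 80.0% of 25 with a level of 14 or more, with medians of -0.01 and -0.02. The members at these levels were 22 of 22 and 8 of 8 below 0, with medians of -0.03 and -0.01. At a level of 12 to 13, 3 of 5 members and 61.0% of 210 other genes lay below 0. At the dim end, 37.2% of 3853 genes under 6 lay below 0.

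Congenic array 2 was most often the lowest array. It held the lowest value of the 6 arrays for 17 of 41 members and the highest for 0. The 3 Dahl S arrays held the highest value for 10, 12 and 13 members. Congenic array 1 was the highest for 5 members and the lowest for 5. The medians of the members, each relative to its own mean over the arrays, were 0.01, 0.02 and 0.01 on Dahl S arrays 1, 2 and 3 and 0.00, -0.03 and -0.01 on congenic arrays 1, 2 and 3. Without congenic array 2, 33 of 41 members lay below 0 with a median of -0.03, and over the low-control arrays alone 32 of 41 did. The number was also 33 without Dahl S array 3, and it ran from 33 to 38 with any 1 array left out. The part of the control level in the shift was not tested.

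**Figure D1:**
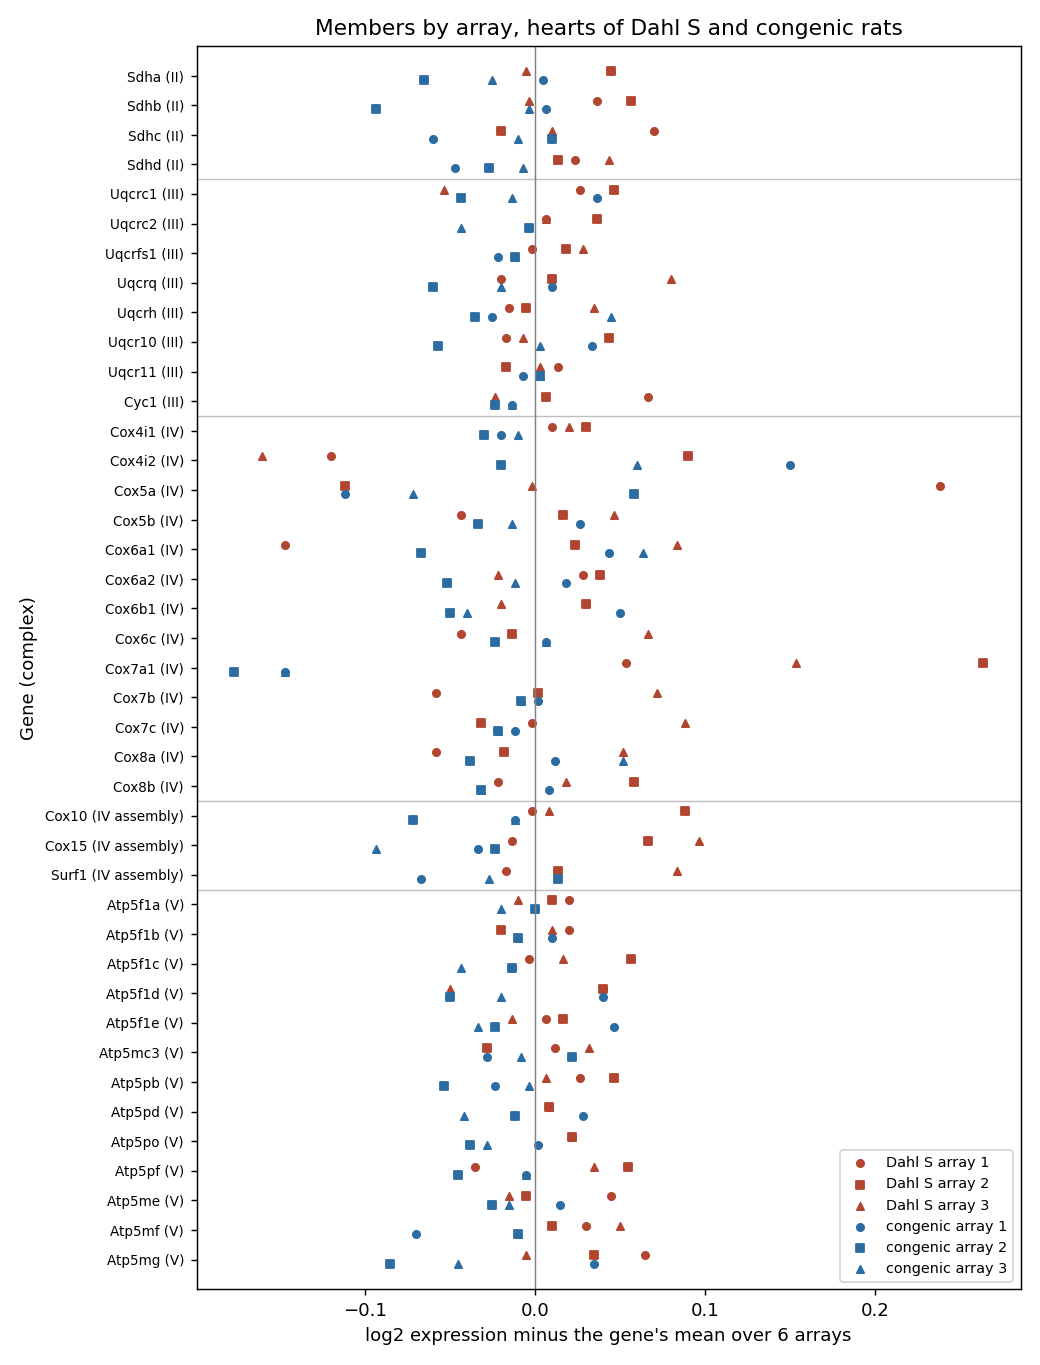
Log2 expression of each of the 41 measured members on each array, minus the gene's mean over the 6 arrays (horizontal axis), grouped by complex. Red points are Dahl S and blue points congenic arrays, with the symbol giving the array number. Most points lie within 0.1 of 0, and Cox7a1 is the member whose strains stand furthest apart.

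All 4 complex II subunit genes lay below 0, with a median of -0.05. Sdha, the flavoprotein that oxidises succinate, read 13.04, 13.04 and 12.99 on Dahl S arrays 1, 2 and 3 and 13.00, 12.93 and 12.97 on congenic arrays 1, 2 and 3. Its highest congenic array lay above its lowest Dahl S array, so that the strains overlapped. The difference was -0.05 (SE 0.05, n = 3 each; limma adjusted p = 0.882). Sdhb, the iron-sulfur subunit, read 13.44, 13.46 and 13.40 against 13.41, 13.31 and 13.40, with congenic array 2 the low one (-0.06, SE 0.06, limma adjusted p = 0.869). Sdhc and Sdhd anchor the enzyme in the membrane and bind ubiquinone. Sdhc differed by -0.04, and its Dahl S and congenic arrays overlapped.

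Sdhd was the complex II gene whose strains did not overlap. Its brighter probe set read 13.13, 13.12 and 13.15 on the Dahl S arrays and 13.06, 13.08 and 13.10 on the congenic arrays (-0.05, SE 0.05, 3.67% lower, limma adjusted p = 0.873). A dimmer Sdhd probe set showed the same order without overlap, with 12.04, 12.13 and 12.14 against 12.02, 12.01 and 11.99 (-0.10, limma adjusted p = 0.797). Both probe sets read the same RNA pools, so they are not independent samples.

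In complex III all 8 measured genes lay below 0, with a median of -0.02 (-0.03 without congenic array 1) and a lowest difference of -0.05. Uqcrc2, a core protein on the matrix side, read 13.29, 13.32 and 13.29 in Dahl S and 13.28, 13.28 and 13.24 in the congenic heart (-0.03, SE 0.05, limma adjusted p = 0.926). Uqcrfs1, the Rieske iron-sulfur protein, read 13.59, 13.61 and 13.62 against 13.57, 13.58 and 13.58 (-0.03, SE 0.05, limma adjusted p = 0.939). In both genes the strains did not overlap, but the nearest arrays differed only in the last digit given. A second Uqcrc2 probe set, with 11.83, 11.80 and 11.72 against 11.68, 11.75 and 11.74, did overlap (-0.06, limma adjusted p = 0.873). Uqcrq, a small subunit, had the largest difference of the complex (-0.05, SE 0.06, limma adjusted p = 0.908). Its Dahl S values were 13.56, 13.59 and 13.66 and its congenic values 13.59, 13.52 and 13.56, which overlap. Its difference was 0.00 over the low-control arrays alone.

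The remaining complex III genes were closer to equal. Cyc1, the haem-bearing subunit that hands electrons to cytochrome c, differed by -0.03, and Dahl S array 1 (13.69) stood above the other 5 arrays (13.60 to 13.63). Uqcrc1 (the other core protein), Uqcrh (the acidic hinge protein) and Uqcr10 each differed by -0.01, and Uqcr11 had a mean of 13.20 in both strains. Leaving out any 1 array moved these last 4 differences between -0.04 and 0.02, and each changed sign in at least 1 of those fits.

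Complex IV held the largest difference of all members, Cox7a1, and also the 3 members above 0. Over its 13 measured subunits the median was -0.03, with 10 below 0, and without Dahl S array 3 the median was just below 0. Cox4i1, the regulatory subunit that binds adenine nucleotides, read 14.39, 14.41 and 14.40 in Dahl S and 14.36, 14.35 and 14.37 in the congenic heart. The strains did not overlap, yet the difference of -0.04 (SE 0.05, 2.76% lower) had a limma adjusted p of 0.909. Cox5b, Cox6c and Cox7b each differed by -0.01, Cox6b1, which bridges the dimer, by -0.03 and Cox7c by -0.04. In these 5 genes the strains overlapped. Cox5b, Cox6c and Cox7b were above 0 over the low-control arrays alone, at 0.02, 0.03 and 0.03. Cox5a was read by a dim probe set for this list, with a mean of 8.05 and a difference of -0.08 (SE 0.10) that turned to 0.02 without Dahl S array 1.

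Cox7a1 encodes the heart and skeletal muscle isoform of subunit VIIa, a small membrane subunit. It read 9.48, 9.69 and 9.58 on Dahl S arrays 1, 2 and 3 and 9.28, 9.25 and 9.28 on congenic arrays 1, 2 and 3. The congenic arrays lay within 0.03 of each other and all below the lowest Dahl S array. The means were 9.58 ± 0.11 and 9.27 ± 0.02 (SD, n = 3 each), a difference of -0.31 (SE 0.07, 95% interval -0.47 to -0.16), or 19.6% lower. The unadjusted p in limma was 0.00179 and the adjusted p 0.717, so the gene did not pass over all probe sets. It ranked at 51 of 14217 genes by p and at 80 by how far below 0 it lay. With 1 array left out, the difference ran from -0.37, without Dahl S array 1, to -0.26, without Dahl S array 2, and the unadjusted p was at most 0.00790. Over all 16 other settings the adjusted p ran from 0.134, with an intensity trend and robust variance, to 0.993. Only 1 probe set was annotated to Cox7a1, and its mean log2 level of 9.43 was low for this list.

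The other muscle isoforms differed by 0.04 or less. Cox6a2, the heart and muscle isoform of subunit VIa, read 14.21, 14.22 and 14.16 in Dahl S and 14.20, 14.13 and 14.17 in the congenic heart (-0.03, SE 0.05, limma adjusted p = 0.944). Cox8b, the muscle isoform of subunit VIII, read 14.23, 14.31 and 14.27 against 14.26, 14.22 and 14.22 (-0.04, SE 0.05, limma adjusted p = 0.924). In both genes the strains overlapped. The within-array gap between Cox7a1 and Cox6a2 differed by -0.29 between strains, and that between Cox7a1 and Cox8b by -0.28, without overlap in either case. These gaps were formed after the values had been seen and were not tested.

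Of the ubiquitous isoforms, Cox6a1 and Cox8a were slightly above 0, while Cox4i1 (-0.04) was below it. Cox6a1, the ubiquitous isoform of subunit VIa, read 12.12, 12.29 and 12.35 in Dahl S and 12.31, 12.20 and 12.33 in the congenic heart (0.02, SE 0.08, limma adjusted p = 0.969). Dahl S array 1 was its low array, and without it the difference was -0.04. Over the low-control arrays alone the Cox6a1 difference was 0.11. Cox8a, the ubiquitous isoform of subunit VIII, read 12.61, 12.65 and 12.72 against 12.68, 12.63 and 12.72 (0.02, SE 0.06, limma adjusted p = 0.975). Its difference was -0.01 without Dahl S array 1 and 0.07 over the low-control arrays alone. Cox4i2, the subunit IV isoform best known from lung and from oxygen sensing, read 7.98, 8.19 and 7.94 against 8.25, 8.08 and 8.16. It had the largest difference above 0 (0.13, SE 0.08, 95% interval -0.06 to 0.32, limma adjusted p = 0.816), with Dahl S array 2 lying among the congenic arrays. Without that array the difference was 0.21, with an unadjusted p in limma of 0.0302 and an adjusted p of 0.941. Smooth muscle and pericyte markers, from cells in which Cox4i2 is known to be expressed, had medians of -0.06, -0.07 and 0.13 on the Dahl S arrays and 0.00, 0.02 and 0.06 on the congenic arrays. Of that list 9 of 9 genes were measured, 8 lay above 0 and 0 had an unadjusted p under 0.05, and its summed linear level was 9572 to 11313 in Dahl S and 10458 to 11223 in the congenic heart. Its part in the Cox4i2 difference was not tested.

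Muscle against ubiquitous isoforms were then compared as a log2 ratio within each array, which removes what both probe sets share. The level of such a ratio depends on the probes and only its change between strains can be read. Cox6a2 minus Cox6a1 was 2.09, 1.93 and 1.82 on the Dahl S arrays and 1.89, 1.94 and 1.85 on the congenic arrays. The ratio differed by -0.05 between strains, less than the SD of 0.14 among the Dahl S arrays (exact two-sided permutation p = 0.700, adjusted p = 0.700 over 3 ratios), by 0.02 without Dahl S array 1, by -0.12 without Dahl S array 3 and by -0.14 over the low-control arrays alone. Cox8b minus Cox8a was 1.62, 1.65 and 1.54 against 1.58, 1.58 and 1.50, again a difference of -0.05 with overlap (exact permutation p = 0.300, adjusted p = 0.450). That difference was -0.03 without Dahl S array 2 or without congenic array 3, -0.08 without Dahl S array 3 and -0.10 over the low-control arrays alone. Cox4i2 minus Cox4i1, the lung against the common isoform, was -6.42, -6.22 and -6.46 against -6.11, -6.26 and -6.22, a difference of 0.17 (exact permutation p = 0.200, adjusted p = 0.450). With 3 arrays against 3 the smallest p this test allows is 0.1, so none of the ratios could have passed. No ratio is given for subunit VIIa, because Cox7a2 was not measured by the rule.

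**Figure D2:**
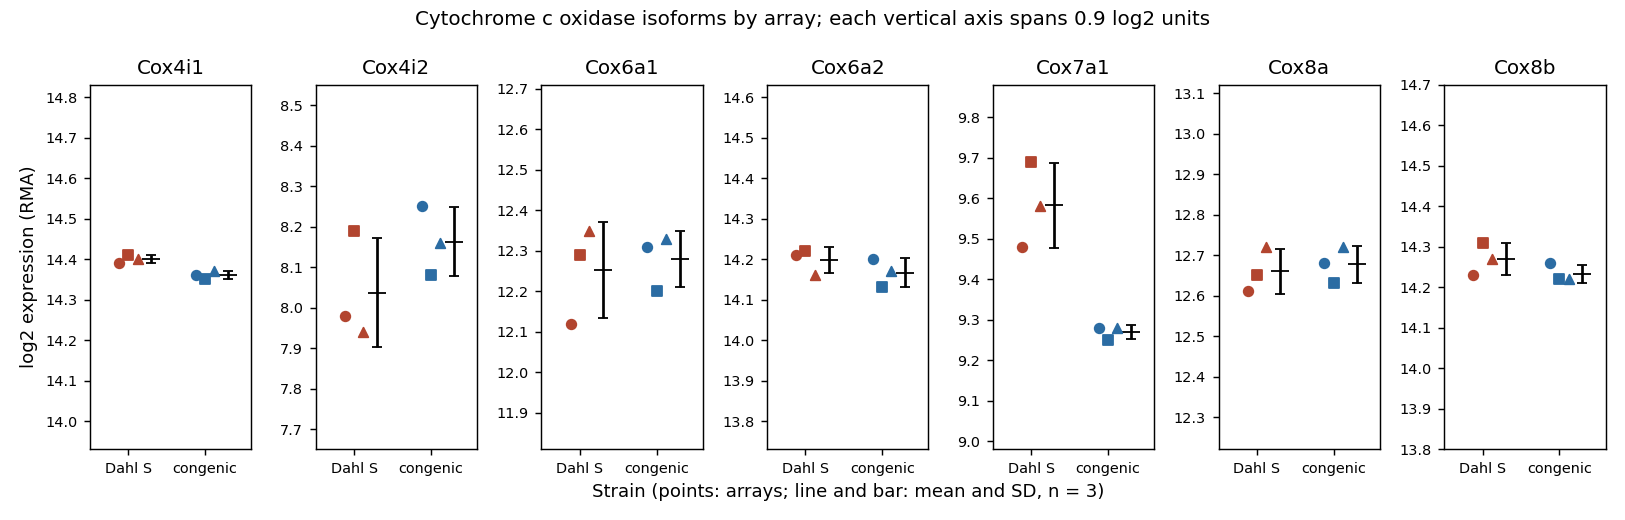
Log2 expression (vertical axes, RMA) of 7 cytochrome c oxidase isoform genes by strain, 1 panel per gene. Points are arrays and the line and bar beside them are mean and SD of 3 arrays. Each axis spans 0.9 log2 units at its own level, since levels of different probe sets are not comparable. Cox7a1 separates the strains by 0.31 and Cox4i1 by 0.04, and the strains overlap in Cox4i2, Cox6a1, Cox6a2, Cox8a and Cox8b.

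The start regions of the isoform genes are shown to set Cox7a1 beside the muscle isoforms with smaller differences, and beside the ubiquitous Cox8a. They are RefSeq sequences of assembly GRCr8, 250 bases before to 50 after the annotated start, from the reference BN rat and from neither strain studied. Of the 46 members 39 matched an entry. Capitals mark CAGCTG, an E-box of the kind that muscle regulators bind, in the muscle genes. In Cox6a2 they also mark CTA and TAG separated by 4 bases. This was searched as a loose form of the motif of MEF2 factors, with any base allowed at those 4 positions. In Cox8a they mark CCGGAAG, the motif of the factor GABP, and AAGGTCA, the core of the motif of oestrogen-related receptors, both lying on the opposite strand.
Cox7a1, chr1:94568966-94569265, plus strand: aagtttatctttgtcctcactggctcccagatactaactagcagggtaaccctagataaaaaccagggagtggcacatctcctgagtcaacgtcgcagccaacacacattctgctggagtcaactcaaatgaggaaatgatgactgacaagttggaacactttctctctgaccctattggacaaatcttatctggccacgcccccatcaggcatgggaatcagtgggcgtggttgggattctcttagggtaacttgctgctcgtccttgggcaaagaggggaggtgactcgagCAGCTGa
Cox6a2, chr1:192219667-192219966, minus strand: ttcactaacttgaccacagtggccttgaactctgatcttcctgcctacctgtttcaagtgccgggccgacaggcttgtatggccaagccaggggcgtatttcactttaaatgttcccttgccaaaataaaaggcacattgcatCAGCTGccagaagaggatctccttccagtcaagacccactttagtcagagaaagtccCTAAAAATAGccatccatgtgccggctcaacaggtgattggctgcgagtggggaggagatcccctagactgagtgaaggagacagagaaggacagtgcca
Cox8b, chr1:205408224-205408523, minus strand: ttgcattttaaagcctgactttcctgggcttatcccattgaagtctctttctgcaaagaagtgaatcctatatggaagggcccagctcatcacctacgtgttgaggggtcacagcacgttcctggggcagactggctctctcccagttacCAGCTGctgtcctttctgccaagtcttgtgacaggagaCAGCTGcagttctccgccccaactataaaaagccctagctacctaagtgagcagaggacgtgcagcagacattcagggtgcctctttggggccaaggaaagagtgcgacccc
Cox8a, chr1:213833574-213833873, minus strand: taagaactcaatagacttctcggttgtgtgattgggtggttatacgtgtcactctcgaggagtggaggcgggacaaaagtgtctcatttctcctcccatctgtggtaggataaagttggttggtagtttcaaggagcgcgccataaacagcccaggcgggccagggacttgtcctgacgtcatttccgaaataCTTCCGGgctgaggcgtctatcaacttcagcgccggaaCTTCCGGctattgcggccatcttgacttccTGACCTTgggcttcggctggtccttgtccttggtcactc

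All 3 muscle isoform windows held CAGCTG: Cox7a1 at 43 to 48 bases past the start, Cox6a2 from -107 to -102 and Cox8b at -100 to -95 and at -62 to -57, counted from the start as 0. Both strands were searched for 5 motifs, and matches of different motifs overlapped in 0 of the 39 windows. CAGCTG was found in 8 of 39 member windows against 15.1% of 27457 promoters, and the loose MEF2 form in 2, Cox6a2 and Cox5b, against 3.83%. Besides the muscle isoforms, the windows with CAGCTG were those of Uqcrfs1, Cox4i1, Cox7b, Atp5f1e and Atp5po, so it was not particular to muscle isoforms. CCGGAAG was found in 15 member windows against 9.22% of promoters, AAGGTCA in 7 against 4.37%, and the motif of the factor NRF1, GCGCA and GCGC separated by 1 free base, in 8 against 4.71%. In the Cox7a1 window CAGCTG was the only one of the 5. A match is a description of the letters and not a binding site, and the presence of CAGCTG did not separate Cox7a1 from Cox6a2 and Cox8b.

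The complex IV assembly factors were all below 0, by a median of 0.06. Cox10 and Cox15 act in turn to make haem A, the haem of cytochrome c oxidase, and Surf1 helps to build the catalytic core. Cox15 read 9.94, 10.02 and 10.05 in Dahl S and 9.92, 9.93 and 9.86 in the congenic heart, without overlap (-0.10, SE 0.06, 95% interval -0.23 to 0.03, limma adjusted p = 0.799). Its other 2 probe sets gave -0.06 and -0.04, and in both the strains overlapped. Cox10 read 9.83, 9.92 and 9.84 against 9.82, 9.76 and 9.82, also without overlap (-0.06, SE 0.06, limma adjusted p = 0.868). Surf1 differed by -0.05 with overlapping strains (limma adjusted p = 0.885).

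In ATP synthase the differences were small and on 1 side, with 13 of 13 measured genes below 0, a median of -0.02 and a lowest difference of -0.06. The median was -0.04 without congenic array 1 and -0.01 without congenic array 3. In the catalytic head, Atp5f1a and Atp5f1b, the alpha and the catalytic beta subunit, differed by -0.02 and -0.01, and the central-stalk genes Atp5f1d and Atp5f1e, delta and epsilon, by -0.02 and -0.01. Atp5f1c, the gamma shaft of the rotor, read 13.84, 13.90 and 13.86 in Dahl S and 13.83, 13.83 and 13.80 in the congenic heart, without overlap (-0.04, SE 0.05, limma adjusted p = 0.904). Atp5mc3, which encodes the same mature rotor-ring protein as its sister genes Atp5mc1 and Atp5mc2, differed by -0.01.

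The peripheral stalk, which holds the head still against the rotor, held 2 more genes without overlap. Atp5pb, its membrane-anchored b subunit, read 14.00, 14.02 and 13.98 against 13.95, 13.92 and 13.97 (-0.05, SE 0.05, limma adjusted p = 0.881). Atp5po, the subunit known for oligomycin sensitivity, read 13.63 on each Dahl S array and 13.61, 13.57 and 13.58 on the congenic arrays (-0.05, SE 0.05, limma adjusted p = 0.894). A dim second probe set of Atp5po, at a mean log2 of 5.77 in Dahl S, differed by 0.06, and the mean of both probe sets by 0.01. Atp5pd and Atp5pf differed by -0.02 and -0.04 with overlap. Among the small membrane subunits that help the enzyme form dimers, Atp5mg (-0.06, limma adjusted p = 0.868) and Atp5me (-0.02) overlapped between strains. A dim second probe set of Atp5me differed by -0.13, with overlap (limma adjusted p = 0.806), and the mean of both by -0.07. Atp5mf did not overlap, with 13.56, 13.54 and 13.58 against 13.46, 13.52 and 13.52 (-0.06, SE 0.05, limma adjusted p = 0.868).

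For the 35 members with a mean log2 of 12 or more, the 95% intervals lay between -0.20, for Atp5mg, and 0.20, for Cox6a1, which is 12.8% lower to 14.9% higher. For the 40 members other than Cox7a1 they lay between -0.31, for Cox5a, and 0.32, for Cox4i2.

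**Figure D3:**
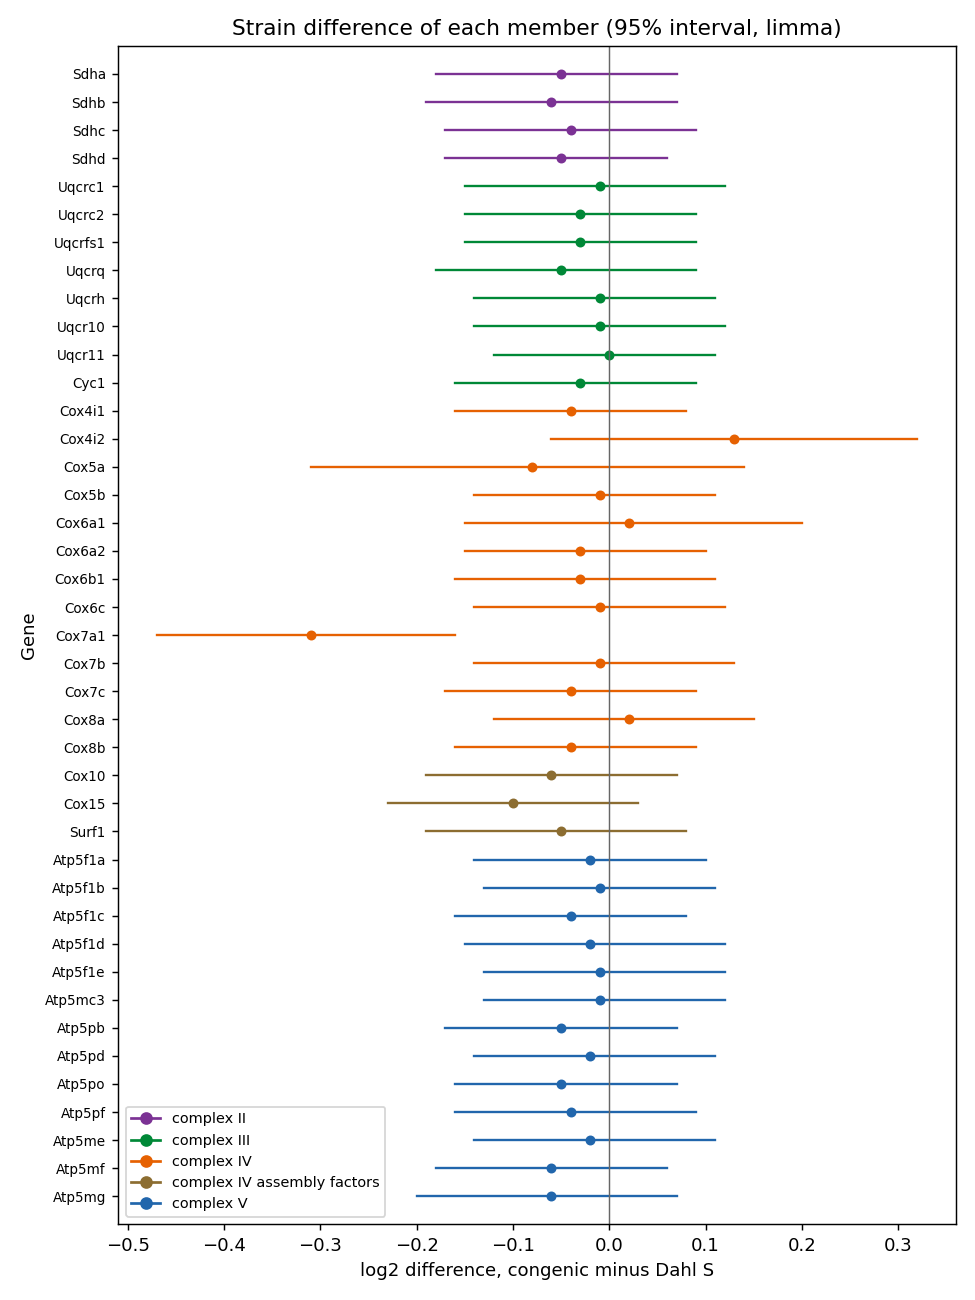
Log2 difference, congenic minus Dahl S (horizontal axis), of each measured member with its 95% interval from limma, coloured by complex. The interval of Cox7a1, -0.47 to -0.16, is the only one of the 41 that does not include 0.

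**Figure D4:**
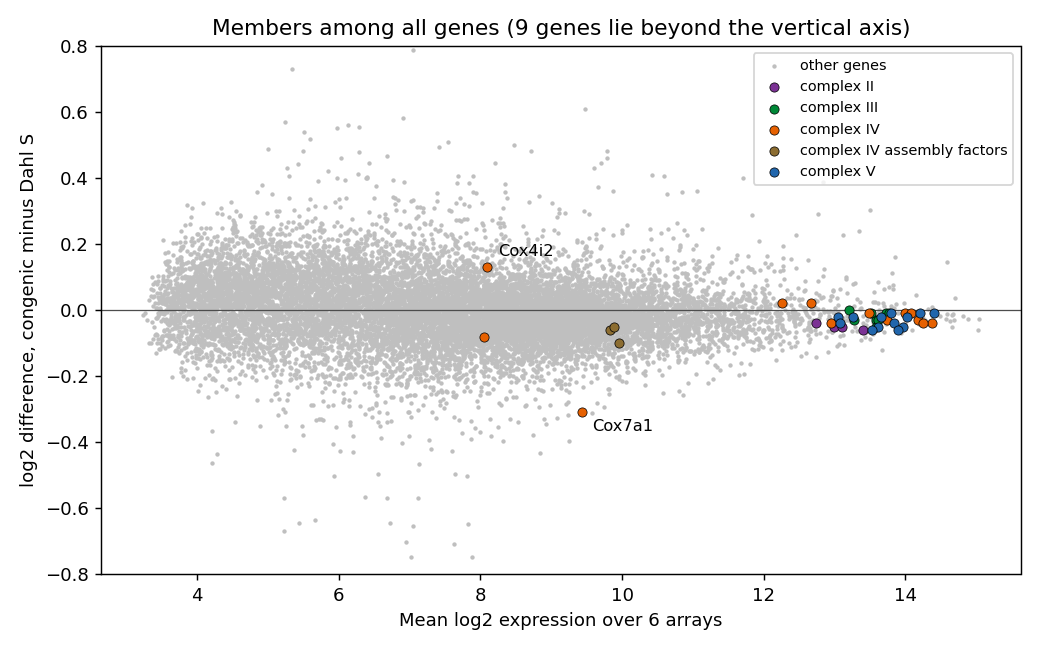
Log2 difference, congenic minus Dahl S (vertical axis), against mean log2 expression over 6 arrays (horizontal axis) for all genes in grey and for the members in colour. Most members sit at the bright end just below 0, and Cox7a1 and Cox4i2, the members farthest below and above 0, sit at mid levels, and 9 genes lie beyond the vertical axis.

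Chromosome 10, the source of the Lewis segment, carries Uqcrq, Cox10, Atp5pd and the unmeasured Atp5mc1, and their position relative to the segment was not analysed here. The 3 measured ones differed by -0.05, -0.06 and -0.02, and none passed the test. Cox7a1, Cox6a2, Cox8a and Cox8b all lie on chromosome 1.

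Other genes of these complexes were counted in the same way, beside 53.3% of all genes below 0. Among assembly factors of complex II, 4 of 4 genes lay below 0 (median -0.11), and the smallest p-values were those of Sdhaf4 (-0.11) and Sdhaf2 (-0.13), which help to mature the flavoprotein. For complex III it was 6 of 6 (median -0.07), with Uqcc2 (-0.08) and Uqcc1 (-0.07) of smallest p. For complex IV, with further subunits, it was 19 of 24 measured of 29 listed (median -0.03), with the copper chaperone gene Cox17 (-0.10) and Coa5 (-0.09) of smallest p. For ATP synthase it was 5 of 8 measured of 9 (median -0.06), with Atpaf1 (-0.19) and Atpaf2 (-0.16), genes of chaperones for the beta and alpha subunits, of smallest p. Limma called 0 genes in each of these 4 lists. At an unadjusted p under 0.05 there was 1, Atpaf1, which was lower (limma adjusted p = 0.736), against 3.55% of all genes.

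Among 18 regulators of mitochondrial gene expression, 14 lay below 0 (median -0.06), and limma called 0. At an unadjusted p under 0.05, 2 were lower and 1 higher, where 3.55% of all genes were lower and 3.47% higher. Ppargc1a, the coactivator of mitochondrial biogenesis, went from a mean of 9.74 to 9.60 (-0.14, SE 0.05), and the nuclear receptor gene Esrrg from 9.43 to 9.29 (-0.14, SE 0.06). Ppargc1b, a related coactivator, lay in the other direction, from 8.53 to 8.85 (0.33, SE 0.14). Limma's adjusted p was 0.736 for Ppargc1a and 0.744 for Esrrg and for Ppargc1b.

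Heart RNA is a mixture of cell types, and in such samples fewer cells of a type and less RNA per cell cannot be told apart. Cardiomyocyte markers lay on the same side as the members: 15 of 17 measured of 18 lay below 0, with a median of -0.02 against -0.03 for the members. Their summed linear level was 321535 to 326978 on the Dahl S arrays and 316741 to 319885 on the congenic arrays, while that of the 41 members was 456350 to 459991 and 444490 to 454862. In both lists every congenic array lay below every Dahl S array. Markers of several other cell types lay on the opposite side. Fibroblast markers were above 0 in 14 of 14 genes (median 0.15, summed level 57853 to 63216 in Dahl S and 63424 to 71632 in the congenic heart). Epicardial and mesothelial markers were above 0 in 9 of 9 measured of 10 (median 0.13, 909 to 979 against 1040 to 1095). Erythroid markers were above 0 in 6 of 6 measured of 8 (median 0.29, 23631 to 28088 against 28828 to 29607).

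The other lists overlapped between strains in their summed level. Macrophage markers were above 0 in 12 of 13 genes (median 0.18, 4638 to 5982 against 5607 to 5850). The macrophage array medians did not overlap, with -0.19, -0.11 and 0.01 on the Dahl S arrays and 0.06, 0.05 and 0.15 on the congenic arrays. Endothelial markers were above 0 in 8 of 11 measured of 13 (median 0.03, 14513 to 15279 against 15022 to 15764). Skeletal muscle markers were below 0 in 6 of 11 measured of 12 (median -0.01, 23464 to 24762 against 24202 to 25495), and 2 of the 11 were brighter than the median probe set. RMA gives no value of 0, so that no marker could be read as absent. Adipocyte markers were below 0 in 7 of 8 measured of 9 (median -0.06). They varied within both strains, with array medians of -0.85, 0.04 and 0.90 on the Dahl S arrays and -0.37, 0.68 and -0.45 on the congenic arrays, and with a summed level of 7147 to 13253 against 8308 to 11543. Limma called 0 genes of these 9 marker lists. At an unadjusted p under 0.05 there were 2 fibroblast, 2 epicardial, 3 erythroid and 5 macrophage markers, 1 endothelial marker (Eng) and 1 adipocyte marker (Lep), all higher in the congenic heart. Over all genes 3.47% were higher at that threshold. The part of cell composition in the members' shift was not tested.

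**Figure D5:**
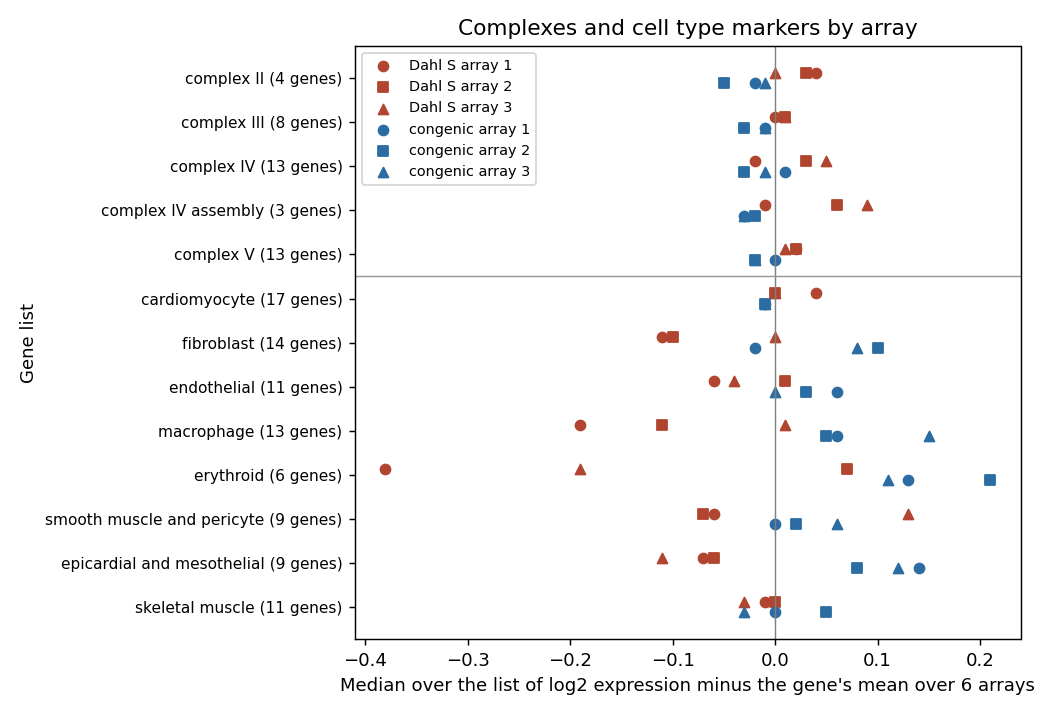
Median over each list of log2 expression minus the gene's mean over 6 arrays (horizontal axis), by array, for the complexes and for marker lists of heart cell types. Red points are Dahl S and blue points congenic arrays, and points of equal value cover each other. The complexes and cardiomyocyte markers stay within 0.1 of 0. The epicardial, erythroid and macrophage medians are higher on every congenic array than on any Dahl S array, and the fibroblast medians overlap. Adipocyte markers, which range from -0.85 to 0.90, are not drawn.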

How the data were processed

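RNA of each of the 6 heart pools went onto its own Affymetrix chip (Rat Expression Array 230 2.0). The authors deposited RMA values, log2 levels of whole probe sets, per the submitters' processing notes. RMA corrects background, normalizes between arrays and summarises probes, and the sources used here give no version. Its levels are compressed at the bright end, where most members lie. The 57 control probe sets were left out and 31042 tested. Platform annotation, with symbols updated through the RefSeq table of GRCr8, gave 20826 probe sets 1 gene, 436 several and 9780 none.

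The test was limma's moderated one (version 3.58.1, R 4.3.3) with strain as the only term and Benjamini-Hochberg adjustment over all tested probe sets. The script was tested on simulated data. Isoform ratios were compared by exact permutation with scipy 1.17.1, and plots drawn with matplotlib 3.10.9. Alternatives were quantile normalization, median centring, other variance models, dim or shared-sequence probe sets left out, means over probe sets, replicate number or control level as a block, the low-control arrays alone, and each array left out. The rule for genes given in full took members with an unadjusted p under 0.05, members without overlap, the 2 of smallest p per complex and the isoform pairs, and for other lists the 2 of smallest p; Esrrg was added after its values were seen. Members and lists were chosen with earlier results of these data known.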

Additional observations from a re-analysis of the deposited data

How the results depend on the processing

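In all 16 alternative fits limma called 0 members. Variance models and the blocks, which are balanced over the strains, cannot change a difference, only its error. Over the settings that can, between 32 and 38 members lay below 0, and Cox7a1 and Cox4i2 kept their direction. The number of members with an unadjusted p under 0.05 was 6 with ordinary variances (Sdhd, Uqcrfs1, Cox4i1, Atp5pb and Atp5po besides Cox7a1) and 1 to 2 with 1 array left out. Over all 31042 probe sets the numbers were 2074 with ordinary variances and 1448 to 3131 with 1 array left out. The adjusted p of the 6 members in the fit with ordinary variances was 0.642 to 0.734. With 1 array left out, the median ran from -0.03 to -0.02 for complex III, from -0.04 to just below 0 for complex IV and from -0.04 to -0.01 for complex V. In the same fits the strain difference of Cox6a2 minus Cox6a1 ran from -0.12 to 0.02, and it was -0.14 over the low-control arrays alone.

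Members close to 0 changed sign. Over the low-control arrays alone Cox5b was 0.02, Cox6c 0.03, Cox7b 0.03, Uqcr10 0.01, Uqcrh 0.02 and Uqcrq 0.00. With quantile normalization Atp5f1d was 0.00 and Cox6c 0.01, and with the mean of its probe sets Atp5po was 0.01. With 1 array left out the ranges that crossed 0 were -0.02 to 0.00 for Atp5f1b, -0.03 to 0.01 for Atp5f1e, -0.02 to 0.01 for Atp5mc3, -0.03 to 0.00 for Atp5me and Atp5pd, -0.16 to 0.02 for Cox5a, -0.04 to 0.01 for Cox5b and Uqcrc1, -0.04 to 0.07 for Cox6a1, -0.03 to 0.02 for Cox6c and Uqcr10, -0.04 to 0.03 for Cox7b, -0.01 to 0.05 for Cox8a, -0.01 to 0.00 for Uqcr11 and -0.04 to 0.00 for Uqcrh. For Atp5f1d the fits ranged from -0.05 to just on either side of 0.

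Nothing in the labels pairs arrays of the same number, and their deviations correlated at -0.07, -0.06 and -0.18, with 0 of 6 arrays closest to their own number. With the replicate block, calls over all probe sets went from 11 to 5, and the adjusted p of Cox7a1 (-0.31 by construction) was 0.878. The causes of these changes were not tested. Precision is limited by 3 arrays per strain.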

Other observations

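Most members varied between Dahl S pools by more than the strains differed. Cox7a1 (range 0.21, strain difference -0.31) was among those that did not. Dahl S array 3 was above Dahl S array 1 by 0.23 for Cox6a1, 0.14 for Cox7b, 0.11 each for Cox6c, Cox7a1, Cox8a and Cox15, and 0.10 each for Uqcrq and Surf1. It was below Dahl S array 1 by values of -0.23 for Cox5a, -0.09 for Atp5f1d and -0.08 each for Uqcrc1 and Cyc1, and the other members lay between. Over the 3 Dahl S arrays the ranges reached 0.35 for Cox5a, 0.25 for Cox4i2 and 0.23 for Cox6a1, more than the strain difference of each. The genes were picked from these same values, and no test was made. Dahl S arrays 3 and 1 also differed in control level (11.17 and 10.41) and in the adipocyte marker median (0.90 and -0.85). The part of either was not tested.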
